A study of Mus musculus with 24 samples.

Results

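The acyl-CoA thioesterase (Acot) family was followed in mouse liver across genotype and beta3-adrenergic stimulation. Its members were the array's gene probes, control spots left out, whose gene name was Acot1, Acot2, Acot3, Acot4, Acot5, Acot6, Acot7, Acot9, Acot12 or Acot13, with every probe of each gene taken. This gave 10 genes and 17 probes, out of 21331 genes tested and 56605 gene probes. All 10 genes and 16 of the 17 probes passed the filter on dim probes. The filter asked for a signal well above background, by the scanner software's flag, on at least 4 of the 6 arrays of at least 1 group. The rule reads gene names alone, and the family was picked with earlier results of these data known.

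RNA from the livers of 24 male mice, labelled as C57Bl/6J, was hybridised to 1-colour Agilent arrays, 1 array per mouse and 6 mice per group. The genotypes were labelled LWT and LKO, and the series title describes livers whose hepatocytes express PPARα or do not. The labels used here name neither the Cre driver nor the deleted part of the gene. All mice had free access to a standard rodent diet and tap water, under a 12 h light and 12 h dark cycle. The 4 groups were LWT with vehicle, LWT with CL316243, LKO with vehicle and LKO with CL316243. CL316243, which activates beta3-adrenergic receptors, was given by gavage at 3 mg/kg. The vehicle, 0.5% carboxymethyl cellulose in water, was the suspension given to the control mice. Gavage was at Zeitgeber time 10, counted from lights on, and all mice were killed at Zeitgeber time 16. The labels give no age, and p-values measure the spread between these mice.

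Acyl-CoA thioesterases cut fatty acyl-CoA into a free fatty acid and coenzyme A, which reverses the activation step of the acyl-CoA synthetases. Type I enzymes (here Acot1 to Acot6) share an α/β-hydrolase fold and lie side by side on 1 chromosome, in the cytosol (Acot1), mitochondria (Acot2) or peroxisomes (the others). Type II enzymes (here Acot7, Acot9, Acot12 and Acot13) have a hotdog fold and lie on other chromosomes. PPARα is a nuclear receptor for fatty acids that acts in the liver's fasting response, and several type I Acot genes are known as its targets.

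The 75th percentile of the processed signal lay between 397.4 and 577.7 intensity units, and 26985 to 34202 of the 56605 gene probes were well above background on an array. That number went with the array's row on the slide, 31409 to 34202 in row 1 and 26985 to 32265 in row 2, and each row held 3 mice of every group. Each of the 3 slides held 2 mice of each group. Ppara itself was measured lower in LKO than in LWT. Its brighter probe differed by -0.68 under vehicle and by -1.91 under CL316243 (log2, LKO minus LWT), with groups that did not overlap and a two-sided exact permutation p of 0.00216 each, the smallest that 924 splits allow. In the limma fit over all genes the adjusted p was 0.158 under vehicle and 3.6e-07 under CL316243. Transcript therefore remained measurable in LKO livers, and the labels do not say whether these probes lie in the deleted part. The 6 hepatocyte markers were all kept, with summed levels of 2600 to 2880 in LWT with vehicle and 2610 to 3480 in LKO with CL316243. Their differences after CL316243 in LWT lay between -0.04 and 0.15, and none was called. In LKO they lay between -0.25 and 0.22. There Apoa1 fell (-0.25, limma adjusted p = 0.0307) and Apob rose (0.22, limma adjusted p = 0.0478). The median summed level of the 6 Kupffer cell markers lay between 49.3 and 57.8 in the 4 groups. That of the 3 adipocyte markers measured lay between 0.664 and 0.719, and Adipoq and Ucp1 did not pass the filter. Of the 4 neutrophil markers, S100a8 and S100a9 rose with CL316243 in both genotypes, Ly6g fell in LWT (-0.38, limma adjusted p = 0.0342; -0.28, adjusted p = 0.118 in LKO) and Mpo was not called. The median sum of these 4 was 2.65 with vehicle and 7.44 with CL316243 in LWT, and 2.19 and 7.0 in LKO. Of 4 cholangiocyte genes, Sox9 rose in both genotypes. Of 5 endothelial genes 2 rose and 1 fell in LWT and 1 rose and 1 fell in LKO, where Lyve1 rose by 2.39 (adjusted p = 1.16e-05). Of 5 stellate cell genes 1 rose and 1 fell in LWT and 1 rose in LKO. Over all genes 38.3% were called after CL316243 in LWT and 40.3% in LKO. The markers' part in the Acot results was not tested. In bulk liver, fewer cells of a type and less RNA per cell cannot be told apart.

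Levels below are log2 signal relative to the array's own 75th percentile, for the brightest kept probe of each gene. A difference of such levels is called when its p-value from limma, adjusted by Benjamini-Hochberg over the 21331 genes, is under 0.05. SE is the standard error of the fit. Levels of different probes are not compared with each other.

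**Figure D1:**
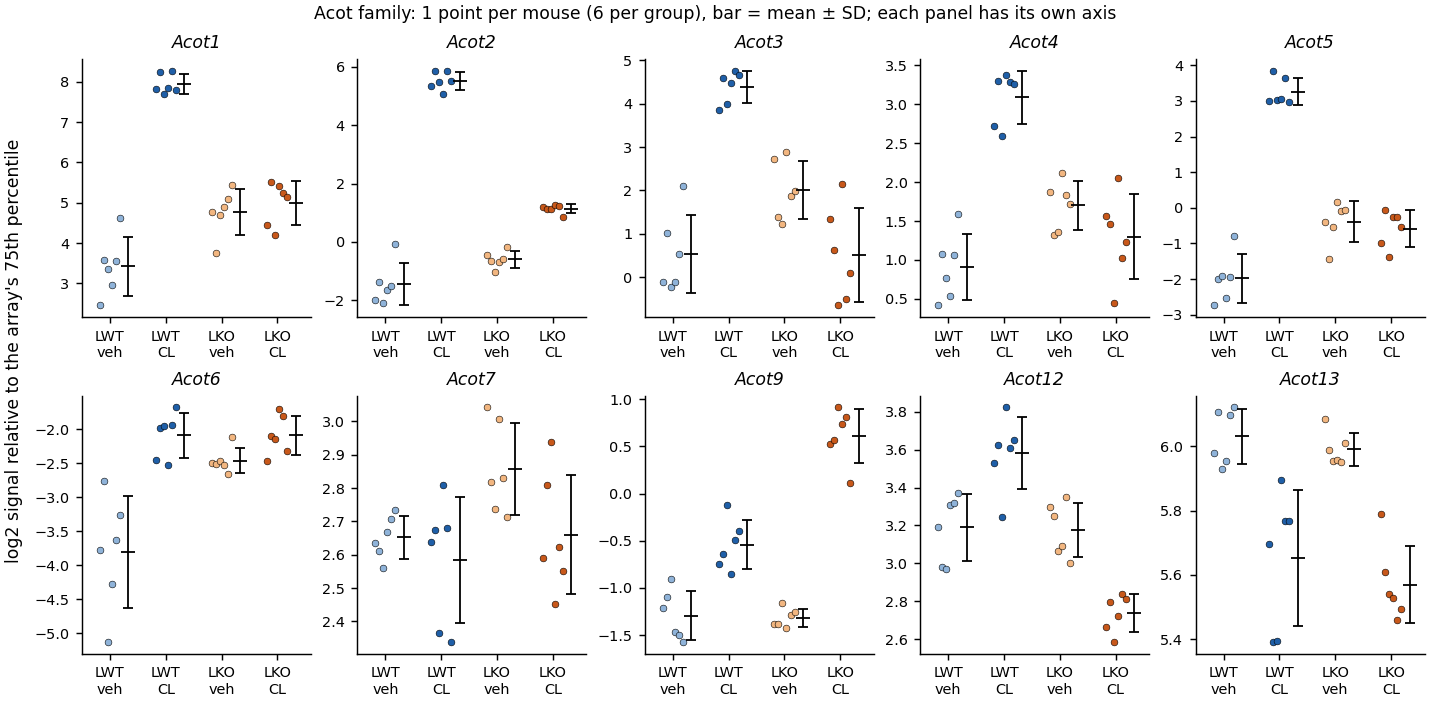
Log2 signal of the 10 Acot genes in each of the 24 mice, relative to the array's 75th percentile, in a panel per gene with its own vertical axis. Points are mice (6 per group), bars are the group mean ± SD, and veh and CL stand for vehicle and CL316243. For Acot1 to Acot6 the 6 LWT mice given CL316243 all lay above the 6 LWT mice given vehicle, whereas Acot9 was highest in the 6 LKO mice given CL316243.

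Promoters of 3 members are shown first because PPARα binds as a dimer with RXR to a direct repeat spaced by 1 base. RefSeq promoter windows (GRCm38.p6, 250 bases before to 50 after the start) were found for 8 of the 10 genes, and none for Acot6 and Acot13. The motif searched on both strands was AGGTCANAGGTCA, which holds its 6-base unit AGGTCA at both ends. With up to 2 mismatches it was found in 2 of the 8 genes, Acot4 and Acot12, while 3.86% of all 32851 windows hold such a match. The 6-base unit alone was found in 4 of the 8 (Acot3, Acot4, Acot5 and Acot12), against 16.3% of all windows. The 250 bases upstream of 3 genes follow. Acot2 is shown as the gene with the largest rise, at chr12:83987611-83987860, plus strand, and holds no match. Acot4 lies at chr12:84038129-84038378 and Acot12 at chr13:91741271-91741520, both on the plus strand, with the match in capitals.
Acot2: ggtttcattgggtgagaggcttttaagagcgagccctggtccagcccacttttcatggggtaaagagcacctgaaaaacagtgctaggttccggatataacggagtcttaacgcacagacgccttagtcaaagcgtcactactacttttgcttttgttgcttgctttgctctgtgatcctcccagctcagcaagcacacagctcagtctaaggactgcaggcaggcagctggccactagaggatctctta
Acot4: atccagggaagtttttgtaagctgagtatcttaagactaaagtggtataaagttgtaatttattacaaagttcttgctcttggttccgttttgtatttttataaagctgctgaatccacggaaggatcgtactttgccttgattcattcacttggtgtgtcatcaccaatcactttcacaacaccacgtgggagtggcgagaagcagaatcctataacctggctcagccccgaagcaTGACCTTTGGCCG
Acot12: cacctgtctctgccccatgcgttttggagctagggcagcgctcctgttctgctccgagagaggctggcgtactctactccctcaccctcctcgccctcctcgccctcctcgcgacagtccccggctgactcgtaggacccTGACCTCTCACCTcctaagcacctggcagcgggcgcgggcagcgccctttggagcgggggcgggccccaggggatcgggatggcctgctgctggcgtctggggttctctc
On the minus strand the Acot4 match reads CGGCCAAAGGTCA, with 2 mismatches, and begins at position -13 from the start. The Acot12 match reads AGGTGAGAGGTCA, with 1 mismatch, at position -110, and 0.554% of all windows hold a match that close. A match is a description of these letters and no site was measured. Among the members' windows the closest pair of different genes, Acot1 and Acot4, was 52.0% identical over a global alignment.

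In LWT livers CL316243 raised all 6 type I genes, and it moved the type II genes less and in both directions. Over the family 8 of 10 genes rose (Acot1, Acot2, Acot3, Acot4, Acot5, Acot6, Acot9 and Acot12), 1 fell (Acot13) and 1 was not called (Acot7). Among all genes tested, 38.3% were called in this comparison, 18.9% higher and 19.4% lower. The median difference was 1.95 over the family and 4.19 over type I, beside 0.01 over all genes. In 8 of the 10 genes the LWT groups did not overlap, as in 20.4% of all genes.

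Acot2, the mitochondrial enzyme, showed the largest change of the family. Its probe lies at chr12:85334553-85334612 (mm9, the build of the array's annotation). In LWT with vehicle the level ranged from -2.11 through a median of -1.58 to -0.08, and in LWT with CL316243 from 5.09 through 5.49 to 5.87. The lowest treated mouse was thus far above the highest control mouse. The group means, -1.45 ± 0.73 and 5.52 ± 0.30 (SD, n = 6), differed by 6.97 (SE 0.24, 126-fold, limma adjusted p = 3.35e-15).

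Acot1, the cytosolic long-chain enzyme, and Acot5, a peroxisomal medium-chain enzyme, followed. Acot1 (chr12:85358452-85358511) ran from 2.45 through 3.46 to 4.61 under vehicle and from 7.7 through 7.84 to 8.27 under CL316243. Its difference was 4.52 (SE 0.30, 23-fold, adjusted p = 2.08e-10). Acot5 (chr12:85416634-85416693) ran from -2.74 through -1.96 to -0.79 and from 2.97 through 3.04 to 3.84, a difference of 5.23 (SE 0.30, 37.6-fold, adjusted p = 3.25e-11). In neither gene did the LWT groups overlap.

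The other peroxisomal genes rose less. Acot3, which acts on long-chain acyl-CoA, rose from 0.53 ± 0.90 to 4.39 ± 0.37 (SD, n = 6). Its vehicle mice spanned -0.23 to 2.09 and its treated mice 3.86 to 4.75, and the difference was 3.85 (SE 0.44, 14.5-fold, adjusted p = 6.52e-07). Acot4, which acts on succinyl-CoA and dicarboxylyl-CoA esters, ran from 0.42 through 0.92 to 1.59 under vehicle and from 2.6 through 3.27 to 3.38 under CL316243. The groups did not overlap, and the difference was 2.18 (SE 0.23, 4.54-fold, adjusted p = 1.98e-07). Acot6, an enzyme of branched-chain acyl-CoA, was dim: its level ran from -5.13 through -3.7 to -2.77 under vehicle, where it was well above background in 5 of 6 mice, and from -2.52 through -1.97 to -1.68 under CL316243. It rose by 1.72 (SE 0.26, 3.29-fold, adjusted p = 2.42e-05), and by 0.83 with normexp background correction, so the size of its rise is uncertain.

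Of the type II genes in LWT livers, Acot9, a mitochondrial enzyme, ran from -1.57 through -1.34 to -0.91 under vehicle and from -0.85 through -0.56 to -0.12 under CL316243. The groups were close but did not overlap, and the rise was 0.75 (SE 0.14, 1.68-fold, adjusted p = 0.000146). Acot12, the cytosolic acetyl-CoA hydrolase, ran from 2.97 through 3.25 to 3.37 and from 3.25 through 3.62 to 3.82. Its groups overlapped, and it rose by 0.39 (SE 0.09, 1.31-fold, adjusted p = 0.00177). Acot13, also called Them2 and associated with mitochondria, ran from 5.93 through 6.04 to 6.12 and from 5.39 through 5.73 to 5.89. It fell by 0.38 on the log2 scale (SE 0.08, adjusted p = 0.000632), with no overlap. Acot7, a long-chain enzyme abundant in brain, had means of 2.65 ± 0.06 and 2.58 ± 0.19, a difference of -0.07 with a 95% interval of -0.25 to 0.12 (adjusted p = 0.585).

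**Figure D2:**
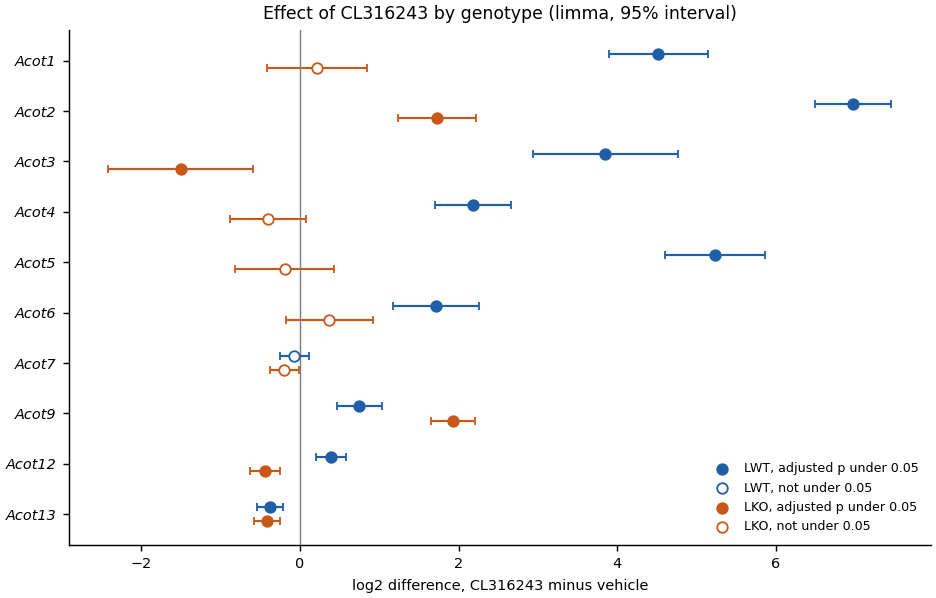
Log2 difference between CL316243 and vehicle for the 10 Acot genes in LWT (blue) and LKO (orange) livers, with 95% intervals from limma. Filled points have an adjusted p under 0.05. The type I genes reach from 1.72 to 6.97 in LWT and from -1.5 to 1.73 in LKO, while Acot9 rises more in LKO and Acot13 falls in both.

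In LKO livers the same treatment called 5 of 10 genes, beside 40.3% of all genes (20.9% higher and 19.4% lower), with 2 higher (Acot2 and Acot9) and 3 lower (Acot3, Acot12 and Acot13). Of the type I genes, 1 rose, 1 fell and 4 were not called, and their median difference was 0.01, beside 0.03 over all genes. The mice of the 2 LKO groups did not overlap in 4 genes (Acot2, Acot9, Acot12 and Acot13), as in 20.8% of all genes.

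Acot2 still rose without hepatocyte PPARα. LKO mice given vehicle ran from -1.05 through -0.62 to -0.19 and those given CL316243 from 0.84 through 1.17 to 1.27, so the groups were apart. The difference was 1.73 (3.33-fold, adjusted p = 7.84e-06). Its treated LKO mean, 1.13 ± 0.16, lay below the treated LWT mean of 5.52 ± 0.30.

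Acot3 moved the other way. Its LKO mice ran from 1.23 through 1.93 to 2.88 under vehicle and from -0.65 through 0.37 to 2.14 under CL316243. These groups overlapped, with 5 of 6 treated mice under the vehicle mean, and the gene fell by 1.5 on the log2 scale (SE 0.44, adjusted p = 0.00939). Acot1 in LKO ran from 3.75 through 4.83 to 5.44 and from 4.21 through 5.19 to 5.51, so the groups largely coincided. Its difference was 0.22, with a 95% interval of -0.41 to 0.84 (adjusted p = 0.593). The differences of Acot4 (-0.4, adjusted p = 0.171), Acot5 (-0.19, adjusted p = 0.642) and Acot6 (0.37, adjusted p = 0.274) did not pass the test. The brighter Acot4 probe passed it only without LKO CL316243 mouse 4 (-0.55, adjusted p = 0.0497).

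Acot9 rose further in LKO than in LWT. LKO mice ran from -1.42 through -1.34 to -1.16 under vehicle and from 0.11 through 0.65 to 0.91 under CL316243, and every treated LKO mouse also lay above every treated LWT mouse. The rise was 1.93 (SE 0.14, 3.81-fold, adjusted p = 3.84e-09). Acot12 ran from 3 through 3.17 to 3.35 and from 2.59 through 2.76 to 2.84, without overlap. It fell by 0.44 on the log2 scale (adjusted p = 0.000635), where it had risen in LWT. Acot13 ran from 5.95 through 5.97 to 6.08 and from 5.46 through 5.53 to 5.79, again without overlap. It fell by 0.42 (adjusted p = 0.000241). Acot7 differed by -0.2 (adjusted p = 0.0827), and it passed the test after 3 other scalings (-0.23 to -0.25, adjusted p = 0.0154 to 0.0173) and without LKO CL316243 mouse 3 (-0.25, adjusted p = 0.0255).

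The difference between the genotypes' responses was tested directly as the interaction (the effect of CL316243 in LKO less the effect in LWT). Of the 10 Acot genes 8 were called, 7 lower and 1 higher, beside 5.41% of all genes, 3.24% lower and 2.17% higher. All 6 type I genes were lower, with a median of -4.77 beside 0.03 over all genes. The values were -4.3 for Acot1 (adjusted p = 8.86e-07), -5.24 for Acot2 (adjusted p = 1.82e-09) and -2.58 for Acot4 (adjusted p = 1.97e-05). Acot6 had the smallest type I interaction, -1.34 (SE 0.37, adjusted p = 0.0345), and -0.63 with normexp. With every kept probe in the fit its brighter probe was called (limma adjusted p = 0.0324). Its second probe was seldom well above background, so its test is not read. The Acot6 call was lost with no filter on dim probes (adjusted p = 0.0744). It was also lost without any 1 of 10 mice (adjusted p = 0.0506 to 0.0627): LWT vehicle 1 and 4, LWT CL316243 2, 5 and 6, LKO vehicle 3 and 6, and LKO CL316243 1, 2 and 6.

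Type II genes split in the interaction. Acot9 was the only member with a higher value, 1.18 (SE 0.19, adjusted p = 0.000414). Acot12 was lower, -0.83 (SE 0.13, adjusted p = 0.000276). Acot13 had an interaction of -0.04 with a 95% interval of -0.27 to 0.19 (adjusted p = 0.896), and Acot7 of -0.13 (adjusted p = 0.66).

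Under vehicle, some type I genes were higher in LKO than in LWT livers. In this comparison 3 of 10 Acot genes were called, all higher (Acot1, Acot5 and Acot6), beside 1.18% of all genes (0.398% higher and 0.778% lower). Of the 10 Acot genes only Acot6 had groups that did not overlap, as in 1.8% of all genes. Acot5 LKO mice ran from -1.43 through -0.24 to 0.16, overlapping the LWT range given above, and the difference was 1.59 (3.01-fold, adjusted p = 0.00494). The second Acot5 probe differed by -0.08 (adjusted p = 0.992), so the Acot5 call rests on 1 of its 2 probes. That second probe was dim under vehicle, with means of -3.87 in LWT and -3.95 in LKO. It was well above background in 5 of 6 LKO vehicle mice. Acot6 LKO mice ran from -2.66 through -2.51 to -2.12, above the LWT mice, and the difference was 1.34 (2.53-fold, adjusted p = 0.00689), or 0.61 with normexp. Acot1 was higher by 1.35 (2.55-fold, adjusted p = 0.0221), with overlapping groups. Its call was lost without LKO vehicle mouse 4, 5 or 6 or without LWT vehicle mouse 1 or 4 (adjusted p = 0.0532 to 0.0668). Acot2 (0.85, adjusted p = 0.0995), Acot3 (1.48, adjusted p = 0.15) and Acot4 (0.79, adjusted p = 0.131) did not pass. The 4 type II genes had differences between -0.04 and 0.21 that did not pass the test.

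LWT vehicle mouse 6 bears on this comparison. It had the highest level of its group in Acot1 (4.61), Acot2 (-0.08), Acot3 (2.09), Acot4 (1.59) and Acot5 (-0.79). Without it 5 genes were called in place of 3, Acot2 (1.12, adjusted p = 0.000221) and Acot3 (1.79, adjusted p = 0.0374) being added. With only the 2 vehicle groups in the fit 1 gene was called, and Acot1 (adjusted p = 0.0996) and Acot6 (adjusted p = 0.0683) were lost.

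Under CL316243 most type I genes were lower in LKO than in LWT. LKO was lower in 6 of 10 Acot genes and higher in 1, beside 15.9% of all genes (8.17% lower and 7.74% higher). The 2 groups did not overlap in 7 of 10 genes, as in 6.57% of all genes. Acot2 differed by -4.39 (21-fold lower, adjusted p = 4.17e-12) and Acot1 by -2.95 (7.75-fold lower, adjusted p = 1.75e-07). The differences of Acot3 (-3.87), Acot5 (-3.83) and Acot4 (-1.79) had adjusted p-values of 9.86e-07, 2.64e-09 and 5.42e-06. Acot12 was lower too (-0.84, adjusted p = 4.69e-07). Acot9 was higher in LKO by 1.15 (2.22-fold, adjusted p = 1.54e-06). Acot6 had the same mean in both genotypes, -2.09 ± 0.33 in LWT and -2.09 ± 0.29 in LKO, with a 95% interval of -0.55 to 0.54 for the difference. The vehicle and CL316243 comparisons of genotype rest on different mice, and their difference is the interaction given above.

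**Figure D3:**
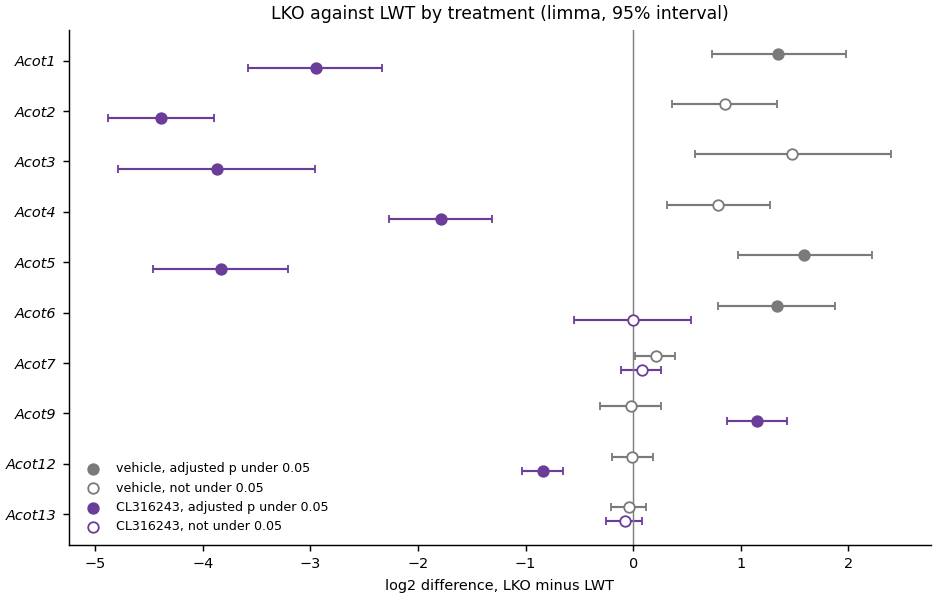
Log2 difference between LKO and LWT livers for the 10 Acot genes under vehicle (grey) and under CL316243 (purple), with 95% intervals from limma. Filled points have an adjusted p under 0.05. Acot1 and Acot5 are called higher in LKO under vehicle and lower under CL316243, and Acot9 and Acot12 separate by genotype after CL316243.

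Ordered by group mean, Acot1 was lowest in LWT with vehicle (3.42 ± 0.72), followed by LKO with vehicle (4.77 ± 0.57) and LKO with CL316243 (4.99 ± 0.54), and highest in LWT with CL316243 (7.94 ± 0.24). Its 2 LKO groups were not told apart. The order was the same for Acot2, with -1.45 ± 0.73, -0.6 ± 0.28, 1.13 ± 0.16 and 5.52 ± 0.30, and the 2 vehicle groups were not told apart. Acot9 had its 2 vehicle groups at the bottom (-1.32 ± 0.10 in LKO and -1.29 ± 0.26 in LWT, difference -0.02), LWT with CL316243 in the middle (-0.54 ± 0.26) and LKO with CL316243 at the top (0.61 ± 0.29). Acot12 had the reverse order for the treated groups, 2.74 ± 0.10 in LKO and 3.58 ± 0.19 in LWT.

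Members with more than 1 kept probe allowed a check within a gene, from a fit over all 32037 kept probes. In that fit 37.6% of probes were called for CL316243 in LWT and 41% in LKO, 5.96% in the interaction, and 1.11% and 15.4% between genotypes under vehicle and under CL316243. In LWT livers the second probe gave an effect of CL316243 in the same direction as the brighter probe for Acot3, Acot4, Acot5 and Acot9. It was 4.44 for Acot3, 2.04 for Acot4, 5.18 for Acot5 and 0.64 for Acot9. For Acot7 the second probe gave 0.18 (adjusted p = 0.203) and the brighter -0.07. In LKO livers the second Acot4 probe was called lower (-0.77, adjusted p = 0.0153) where the brighter was not, and the second Acot3 probe fell by 2.6 (adjusted p = 0.00278). The LKO groups overlapped in both probes. The second Acot3 probe was well above background in 5 of 6 treated LKO mice, so the size of its fall is uncertain. The second Acot9 probe rose by 1.81 in LKO (adjusted p = 2.02e-08).

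The 2 Acot5 probes differed in LKO livers. The brighter probe ran from -1.38 through -0.4 to -0.06 after CL316243 and the difference from vehicle was -0.19. The second probe (chr12:85416893-85416951) ran from -4.32 through -3.9 to -3.5 under vehicle and from -3.6 through -2.73 to -1.88 under CL316243, and it rose by 1.18 (adjusted p = 0.00835). Under vehicle the second probe showed a genotype difference of -0.08 (adjusted p = 0.992), where the brighter probe showed 1.59. The Acot5 interaction was lower by both probes (-5.43 and -4), as was the genotype difference under CL316243 (-3.83 and -4.08). The sequence of the brighter probe is shown because these results turn on it.
Acot5 brighter probe: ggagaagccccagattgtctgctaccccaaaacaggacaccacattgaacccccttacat
It begins at base 1182 of the annotated transcript, and the second probe at base 1441. Type I Acot genes are close copies, so a probe can bind a neighbour's transcript. No pair of member probes shared a run of more than 9 bases, and a match of the probes to the other transcripts was not tested. Levels and changes of single type I genes are therefore uncertain to that extent.

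**Figure D4:**
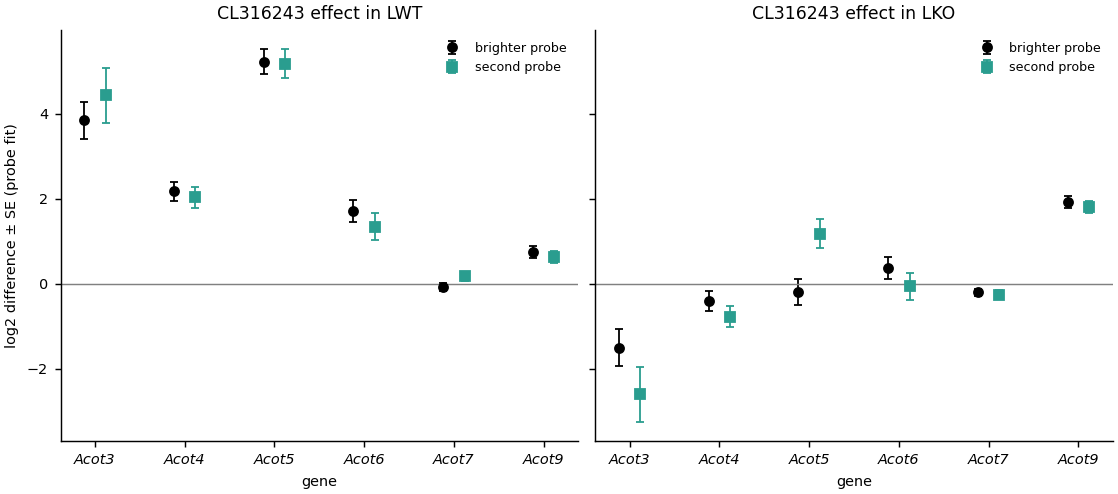
Log2 difference between CL316243 and vehicle ± SE for the brighter probe (black circles) and the second probe (green squares) of the 6 Acot genes with 2 kept probes, in LWT (left) and LKO (right) livers. The second Acot6 probe was not well above background under vehicle in LWT, so its points are not measured differences. In LKO the Acot5 probes lie at -0.19 and 1.18.

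Acot6 had 3 probes. The second was well above background in 0 of 6 LWT mice under vehicle and in 4 of 6 under CL316243. It passed the filter only through that treated group, so no test is given for it. Not all 6 treated mice were well above background either, so no fold difference is given. The measured means in LWT were -6.17 under vehicle and -4.81 under CL316243. Its other differences are not given, because it was well above background in 2 of 6 LKO mice under vehicle and 1 of 6 under CL316243. The third probe was not well above background in any of the 24 mice and was not kept. The second Acot7 probe was higher in LKO under vehicle without overlap (0.34, two-sided exact permutation p = 0.00216), but the fit over all probes gave an adjusted p of 0.171.

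Variation between mice of a group was shared by some members. With the group means removed, Acot1 and the brighter Acot5 probe had a Pearson r of 0.95 over the 24 mice, and Acot3 and Acot4 of 0.92. The second Acot5 probe had an r of 0.43 with Acot1 and of 0.45 with the brighter Acot5 probe. The 2 Acot3 probes had an r of 0.95, and the 2 Acot4 probes of 0.91. Acot9 and Acot12 had an r of -0.68. These values are descriptions. The points share arrays and RNA samples, and the pairs of single probes were looked at after the values were seen.

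The type I genes sit in 117.5 kb of chromosome 12 (85334553 to 85452010, mm9, from the outermost probes) in the order Acot2, Acot1, Acot4, Acot3, Acot5 and Acot6. Within 500 kb of these probes the arrays measured 24 other genes. After CL316243 in LWT, 8 of them rose and 4 fell (18.9% and 19.4% over all genes), with differences from -1.13 to 0.79 and a median of 0.15. All 6 type I genes lay above that range, from 1.72 up. The only other gene measured between the outermost probes, 4732463B04Rik, differed by 0.39 (adjusted p = 0.441). In the interaction 2 of the 24 neighbours were called, both lower, beside 5.41% of all genes (3.24% lower). A count this small is not read as a result about the neighbours. The 2 genes, named after their values were seen, were 2410016O06Rik (-0.8, adjusted p = 0.00218) and Entpd5 (-0.67, adjusted p = 0.0279). Under vehicle the neighbours' differences between genotypes lay between -0.61 and 0.24 and none was called, beside 1.18% of all genes. Under CL316243 they lay between -0.92 and 0.4. There 6 of the 24 were called lower in LKO and 0 higher, beside 8.17% and 7.74% of all genes.

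**Figure D5:**
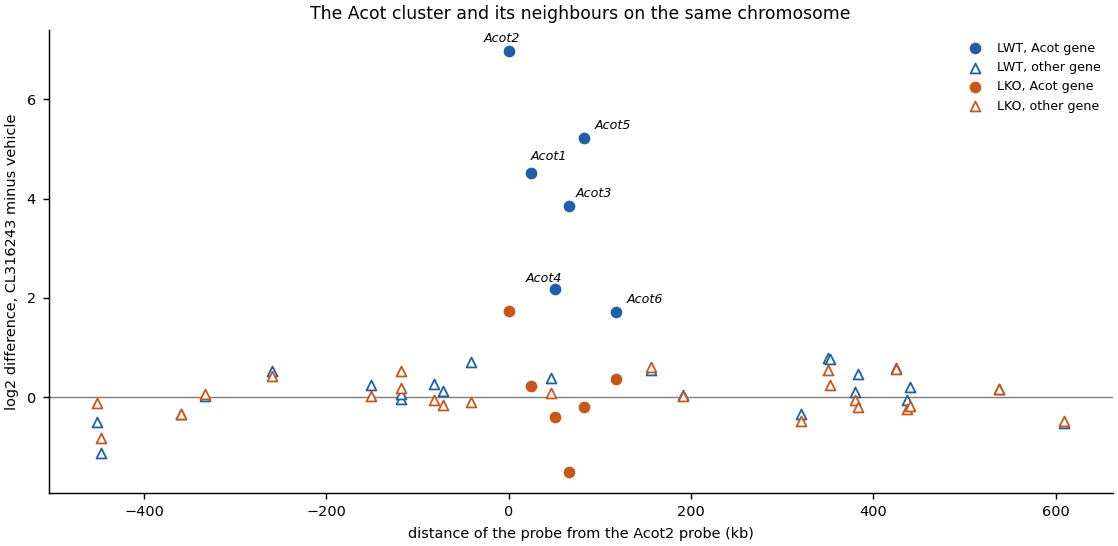
Log2 difference between CL316243 and vehicle for the 6 type I Acot genes (filled circles) and 24 neighbouring genes (open triangles), in LWT (blue) and LKO (orange) livers, against the distance of each probe from the Acot2 probe in kb. The Acot genes span 117.5 kb and stand above the neighbours in LWT, where the neighbours reach 0.79 at most.

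Other genes that make or use acyl-CoA gave the surroundings of the family, to be read beside the 18.9% of all genes called higher and 19.4% called lower in LWT. Of 15 other thioesterases and related enzymes measured (Them5 and Them6 did not pass the filter), 3 rose and 4 fell with CL316243 in LWT, with a median of -0.12. Acot8, a peroxisomal thioesterase, rose by 1.39 (adjusted p = 5.48e-11). Its interaction of -1.42 (adjusted p = 5.13e-08) was the only one called in that list, beside 5.41% of all genes. Acnat2, a peroxisomal acyltransferase, rose by 1.07 (adjusted p = 0.0375). Acot11 fell by 1.4 (adjusted p = 0.00192) and Ppt2, a lysosomal thioesterase, by 0.6 (adjusted p = 3.63e-05).

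The acyl-CoA synthetases run the opposite reaction. Of 16 measured, 3 rose and 4 fell in LWT (median -0.2), close to the shares over all genes, and Acsl6, Acsbg1, Acsm4 and Slc27a6 did not pass the filter. In LKO 5 fell, beside 19.4% of all genes called lower there, and the others were not called. Acsl1, the main long-chain synthetase of liver, rose by 1.05 in LWT (adjusted p = 0.000263), and Acsl5 by 0.73 (adjusted p = 0.00021). Acsm5 fell by 0.95 (adjusted p = 8.5e-05) and Acss1 by 0.56 (adjusted p = 0.00578). The interaction was called lower in 4 of 16, beside 3.24% of all genes. Acsl1 (-1.81, adjusted p = 0.00029) and Acsl5 (-0.88, adjusted p = 0.00736) led these.

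Of 16 genes of coenzyme A supply and acyl-CoA binding, 7 rose and 4 fell in LWT. Vnn1, a pantetheinase, rose by 2.67 (adjusted p = 0.000429) and Slc25a42, the mitochondrial coenzyme A carrier, by 1.82 (adjusted p = 7.92e-08). Ppcdc, an enzyme of coenzyme A synthesis, fell by 0.69 (adjusted p = 0.000266) and Slc25a17, a peroxisomal carrier, by 0.67 (adjusted p = 1.7e-05). Slc25a42 (-1.95, adjusted p = 2.95e-05) and Ppcs (-1.24, adjusted p = 0.000123) were the 2 genes called in the interaction. Over all genes 5.41% were called there.

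Mitochondrial oxidation rose broadly in LWT, with 17 of 19 genes higher, 1 lower and a median of 0.71. The interaction was called lower in 16 of the 19, beside 3.24% of all genes. Cpt1b, a carnitine palmitoyltransferase, rose by 3.13 (adjusted p = 1.28e-10; interaction -2.43) and Slc25a20, the carnitine carrier, by 1.38 (adjusted p = 4.32e-08). Echs1, an enoyl-CoA hydratase, fell by 0.29 (adjusted p = 0.0332). Etfdh, which passes electrons on from acyl-CoA dehydrogenases, had an interaction of -1.21 (adjusted p = 2.52e-08). Of 16 peroxisomal oxidation genes, 11 rose and 3 fell in LWT, with a median of 0.62. Ehhadh, the bifunctional enzyme, rose by 3.98 (adjusted p = 3.35e-15; interaction -4.77) and Crot, which makes carnitine esters, by 2.24 (adjusted p = 7.06e-09; interaction -1.87). Abcd2, a peroxisomal transporter, fell by 1.03 (adjusted p = 0.0343).

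Under vehicle the called oxidation genes and the called type I Acot genes had opposite signs between genotypes. Mitochondrial oxidation genes were lower in LKO in 13 of 19 cases (median -0.45), and peroxisomal oxidation genes in 3 of 16 (median -0.27), beside 0.778% of all genes called lower. Type I Acot genes were higher in 3 of 6 (median 1.35), beside 0.398% called higher. These 3 calls were fragile. The second Acot5 probe did not share its call (-0.08), and those of Acot1 and Acot6 were lost with only the vehicle groups fitted. The other genes of these 3 lists were not called, and the difference between the lists was not tested. Under CL316243 all 3 lists were lower in LKO, in 18 of 19 mitochondrial, 12 of 16 peroxisomal and 5 of 6 type I genes, beside 8.17% of all genes.

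For each member the 3 other genes with the most similar levels over the 24 mice were taken by Pearson r, as a description over mice of 4 groups that share arrays. Gyk, glycerol kinase, came first for Acot1 (0.95), Acot2 (0.98) and Acot5 (0.94), and Lamb3, a laminin chain, second (0.93, 0.97 and 0.94). With group means removed, Gyk kept an r of 0.77, 0.57 and 0.73 with them, and Lamb3 of 0.1, 0.41 and -0.01. The third genes were Tor3a (0.93), Scyl2 (0.96) and Ylpm1 (0.93). Acot3 was nearest to Ehhadh (0.9), Dctn5 (0.89) and Fpgs (0.88), and Acot4 to Igsf5 (0.91), Crat, carnitine acetyltransferase (0.91), and Ehhadh (0.9). Ehhadh kept an r of 0.72 with Acot3 and 0.81 with Acot4 within groups.

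Acot6 had weaker likeness (Wrnip1 0.79, Rspo3 0.79 and Mboat1 0.78), and Acot7 was nearest to Dnajb6 (0.83), Dym (0.8) and Naaladl2 (0.78). Acot9 was nearest to Tsc22d2, Tanc1 and Ppp2r5b (0.95 each). Acot12 was nearest to Pex19 (0.94), a peroxisome assembly factor, Acat1 (0.93), a mitochondrial thiolase, and Atrn (0.92). Acot13 was nearest to Mrpl14 (0.96), a mitochondrial ribosome protein, Mnd1 (0.95) and Ccdc90b (0.95), with an r within groups of 0.85, 0.81 and 0.84.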

How the data were processed

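RNA of 24 mouse livers (200 ng per mouse, Cy3) was measured on 1-colour arrays of 62976 spots. The deposited scanner files, from Agilent Feature Extraction 10.10.1.1 per the submitters' processing notes, hold the processed signal as an intensity, corrected for background by that software, with a well-above-background flag. The deposited series table holds log2 values made by the authors; they matched quantile-normalized log2 median signals (99.3% of 31367 probes within 0.01) and served as an alternative. Scale and centring beyond that match are not given in the sources used here.

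Control spots were left out, spots of a probe averaged, and log2 of the processed signal was centred on each array's 75th percentile over gene spots. Kept probes carried the flag in 4 or more of the 6 mice of any 1 group, with 3 or more values per group. These were 32037 probes, and the brightest per gene stood for 21331 genes. All groups were fitted together in R 4.3.3 with limma 3.58.1 (lmFit, eBayes, 20 residual degrees of freedom), with Benjamini-Hochberg adjustment. The number of arrays limits the precision: the median SE was 0.13 between 2 groups and 0.19 for the interaction. Data were also simulated for the LWT comparison over 21331 genes. Recovered were 43.3% of 67 genes shifted by 0.5 (log2), 68.7% of 67 shifted by 1 and 97% of 66 shifted by 2. The other genes were not shifted, whereas 38.3% were called in the real comparison. The adjustment is stricter with so few shifted genes, so these shares do not give the power of the real comparison. Correlations within groups used values minus the group mean.

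Named genes were every member and probe, Ppara, up to 2 called genes in each direction per list (LWT effect and interaction), the 3 most similar genes per member, and every gene inside the cluster; 1 gene that this rule names is not reported here. The members and lists were chosen with earlier results of these data known. Alternatives were other scalings, other filters, slide or array row as a block, slides alone, the replicate number as a block, fewer groups, every kept probe, and leaving out each mouse. Same-numbered mice did not deviate together (mean r 0.057 over 36 pairs, -0.183 to 0.421), so the numbers were not taken as pairs.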

Additional observations from a re-analysis of the deposited data

Results flagged for a closer look

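Of 40 groups of 6 mice tested for a value standing apart by Dixon's criterion (0.625), which chance meets in about 1 in 20 groups, 3 met it. Acot2 in LWT vehicle mouse 6 was at -0.08, while the other 5 mice lay between -2.11 and -1.39. Acot2 in LKO CL316243 mouse 6 was at 0.84, with the others between 1.11 and 1.27. Acot6 in LKO vehicle mouse 6 was at -2.12, with the others between -2.66 and -2.47.

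The effect of CL316243 differed between genotypes by the interaction test for 8 members. The differences, LKO minus LWT on the log2 scale with limma adjusted p, were -4.3 for Acot1 (8.86e-07), -5.24 for Acot2 (1.82e-09), -5.36 for Acot3 (8.61e-06) and -2.58 for Acot4 (1.97e-05). They were -5.43 for Acot5 (2.52e-08), -1.34 for Acot6 (0.0345), 1.18 for Acot9 (0.000414) and -0.83 for Acot12 (0.000276).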

How the results depend on the processing

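No difference that was called in the main setting changed sign under any alternative run. The number of members called stayed at 9 for CL316243 in LWT and at 7 for genotype under CL316243 in all alternatives, and lay at 5 to 6 for CL316243 in LKO and 7 to 8 for the interaction. For genotype under vehicle, 3 in the main setting, it was 1 with only the groups compared, 1 with every kept probe in the fit, and 2 to 5 when 1 mouse was left out. With every kept probe, a gene counted only if all its kept probes were called, and Acot5 averaged 0.76 (largest adjusted p = 0.992). Acot6 dropped out only through its second probe, well above background in 0 of 6 LWT vehicle mice, so that loss is not read. The brighter Acot6 probe was called in that fit (limma adjusted p = 0.00773). With the replicate number as a block the counts were 9, 5, 8, 3 and 7, and with slide as a block the same. They were also the same with array row as a block, which was chosen after seeing the data. Of 165 single-slide values 33 moved by more than the SD between replicates, in both directions. Within single slides, of 2 mice per group, the LWT effect was 3.83 to 4.95 for Acot1, 6.39 to 7.35 for Acot2, 4.36 to 5.79 for Acot5 and 0.62 to 0.87 for Acot9. Background correction by normexp gave a smaller rise of Acot6 in LWT (0.83) and a family median of 1.44 in place of 1.95. Dim probes limit the rest: Acot6 was near background under vehicle, and its differences are less certain than those of the bright genes. The cause of these changes was not tested.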
